A study of Oryza sativa with 3 samples.

Results

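The regions described here are 1567 open gaps of the rice genome, each 150 to 300 bp wide, that lie between 2 nucleosomes with strong support from single-end reads. They were found by joining the 2 forms of micrococcal nuclease sequencing (MNase-seq) in the study. Nuclei came from seedling leaf of the rice cultivar Nipponbare and were digested with MNase in each case. No other genotype, tissue or treatment entered the design. Replicate 1 was sequenced as single-end reads in 2 technical replicates, which the authors pooled into 26516807 uniquely placed reads. Replicate 2 was sequenced as read pairs, and the 3456855 nucleosome calls that the authors made from it were used. The gaps were chosen by both. The free stretch between the ends of adjacent calls had to measure 150 to 300 bp, and the occupancy of both calls had to be 8 or more. To obtain the occupancy, each single-end read was reduced to a read centre, 73 bp inward from its 5′ end, and read centres at a distance of up to 20 bp from the centre of a call were counted. Such a call is named strong below. Of 67175 gaps of this width, 14505 had 1 strong flank and 51103 had none, and these are the gaps set beside the 1567. With 1 biological replicate in each form there was no replicate error and no test between kinds of gaps was run. Errors are SDs over the 12 chromosomes unless stated otherwise, and chromosomes of 1 library are not replicates.

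MNase cuts the linker DNA between nucleosomes and leaves the DNA wrapped around the histone octamer. A read from mono-nucleosomal DNA therefore starts at the edge of a nucleosome, and many reads that share a centre mark a nucleosome that takes the same position in many cells. Stretches without nucleosomes are known from promoters and other regulatory DNA, where bound proteins can keep the octamer off. In the barrier model, nucleosomes line up beside such a stretch at regular distances and lose their register further away.

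The 1567 gaps made up 2.33% of all gaps of 150 to 300 bp (95% Clopper-Pearson interval 2.22% to 2.45%, which covers counting error only). A left flank was strong in 13.1% of all gaps and a right flank in 13.2%, against 17.6% of all calls. Where the left flank was strong, the right flank was strong in 17.8%. These shares describe the selection and carry no test. The 3134 flanks had an occupancy of 11.9 ± 4.96 (SD over flanks), with a median of 10 and a maximum of 62. The mean over all calls was 4.23, and the mean over the genome for a window of the same 41 bp was 2.92. At the edge of the selection, 594 gaps had exactly 8 reads at the weaker flank and 1058 others, just outside, had exactly 7. The median flank score was 0.659 for these 594 and 0.609 for these 1058. Of all the reads at the flanks, 27.1% were repeats, with the same 5′ end and strand as a read already counted, against 14.5% of all reads of the library. The rule counted repeats towards the 8 reads, so the selection itself can raise the share at the flanks. With repeated reads counted once, 619 of the 1567 gaps kept both flanks at 8 or more. Whether repeated reads are copies of 1 molecule was not tested.

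Gaps between 2 strong nucleosomes were wide within the range allowed. Their median width was 231 bp ± 3.65, against 212 bp for gaps with 1 strong flank and 207 bp for gaps with none. Only 26.4% were narrower than 200 bp, against 39.8% and 44.4%. Widths of 230 to below 260 bp held 473 gaps (30.2%), against 20.4% with 1 strong flank and 18.0% with none. Among all gaps of 230 to below 250 bp, 3.69% had 2 strong flanks (interval 3.31% to 4.09%). Gaps of 250 to below 270 bp had as high a share, 3.70% (interval 3.26% to 4.19%). Among gaps of 150 to below 170 bp it was 1.35% (interval 1.15% to 1.57%), and among gaps of 290 to 300 bp 3.05% (interval 2.41% to 3.82%). A width of 230 to below 250 bp puts the flanking centres 351 to 370 bp apart, and one of 250 to below 270 bp puts them 371 to 390 bp apart. On the outer side of the flanks, the second nucleosome had its maximum at 358 bp. This distance lies inside the first of these ranges but not the second.

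**Figure D1:**
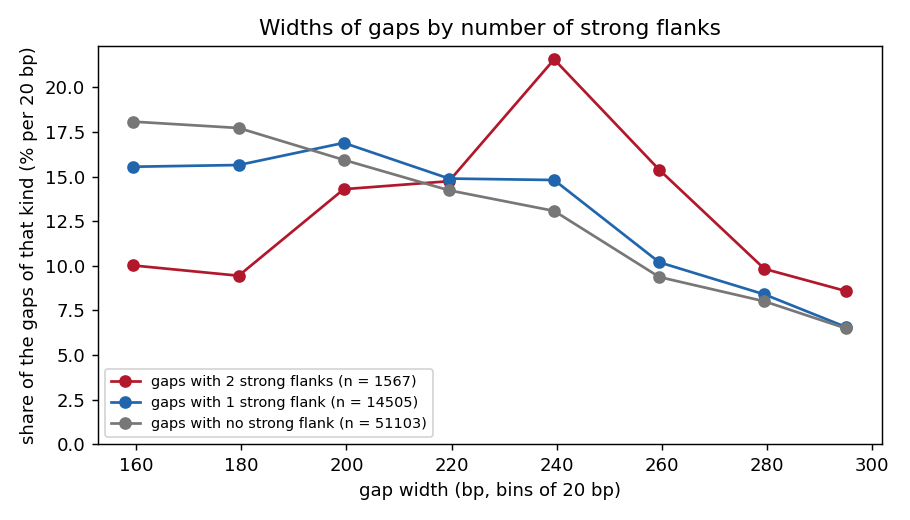
Share of gaps (y axis, % per 20 bp) in width bins of 20 bp (x axis; the last bin, of 290 to 300 bp, is scaled to 20 bp), for gaps with 2, 1 or no strong flank; points stand at the middle of a bin. Gaps with 2 strong flanks have their highest share, 21.6%, at 230 to below 250 bp, while gaps with 1 have it at 190 to below 210 bp (16.9%) and gaps with none at 150 to below 170 bp (18.1%).

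The score of a call comes from nucleR on the paired-end library, so it is a measure of the flanks that the occupancy rule did not use. The flanks of the 1567 gaps had a median score of 0.695 ± 0.0504, with quartiles of 0.580 and 0.760. The flanks of gaps with 1 strong flank had a median of 0.551 and those of gaps with none 0.429. All calls had a median of 0.469. The order of the first 2 held on 12 of 12 chromosomes. In gaps with 1 strong flank the other flank is weak by the rule, so this order follows in part from the choice of gaps. Strong flanks alone had medians of 0.695 at gaps with 2 and 0.682 at gaps with 1. Among the flanks of the 1567 gaps, 48.0% belonged to the 10% of calls with the highest score, against 25.5% with 1 strong flank and 5.58% with none. Both flanks belonged to them in 404 of the gaps (25.8%), against 3.56% and 0.497%. Only 260 of the 3134 flanks (8.30%) scored below the median of all calls. The scale of the score differed between chromosomes, since the 90th percentile of all calls lay between 0.548 on chromosome 9 and 0.733 on chromosome 5. The lowest and highest median flank scores were on these same chromosomes (0.555 and 0.743). With the limit set on each chromosome by its own calls, the share of flanks in the highest 10% was 50.8%, with 44.2% to 55.1% on single chromosomes, against 27.0% with 1 strong flank and 5.98% with none.

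**Figure D2:**
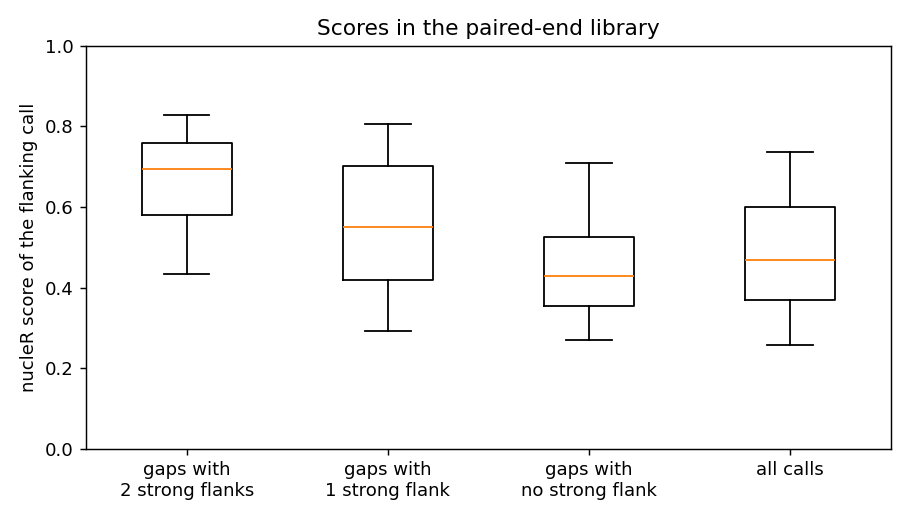
nucleR score in the paired-end library (y axis) of the flanking calls of gaps with 2, 1 or no strong flank and of all calls; the line is the median, the box spans the quartiles and the whiskers the 5th to 95th percentile of calls. The lower quartile of flanks of gaps with 2 strong flanks (0.580) lies above the median of the flanks of gaps with 1 (0.551). The latter include the flank that is weak by the rule.

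At equal occupancy, most of the difference between kinds of gaps was gone. Flanks with 10 to 14 reads had a median score of 0.697 at gaps with 2 strong flanks and 0.694 at gaps with 1, while calls of the same occupancy beside no gap of this width had 0.655. With 8 to 9 reads the medians were 0.626, 0.616 and 0.583. With 15 or more reads they were 0.763, 0.754 and 0.723. In each class of occupancy a strong call beside a gap had the higher median, and the medians at both kinds of gaps lay closer to each other than to that of strong calls elsewhere. The weak flank of gaps with 1 strong flank had a median of 0.435, near that of gaps with no strong flank.

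Inside the gaps, reads were few but not absent. Read centres over 60 bp from both flanking centres had a density of 29.4 per kb, 0.412 ± 0.0492 times the genome mean of 71.3 per kb. The median gap held 5 of them, with quartiles of 2 and 9, and 92 gaps (5.87%) held none. The density was 25.9 per kb in gaps with 1 strong flank and 16.9 per kb in gaps with none, 0.363 and 0.238 times the genome mean. It was higher in gaps with 2 strong flanks than in those with 1 on 11 of 12 chromosomes, with chromosome 2 as the exception. This interior begins right beside the flanks that the rule selected, and the order did not hold throughout it. At 90 to 110 bp inside the flanks, gaps of 250 to 300 bp had 19.8 per kb with 2 strong flanks and 20.8 with 1. Gaps of 200 to below 250 bp had 18.9 and 19.9 per kb, and gaps of 150 to below 200 bp 38.5 and 28.6 per kb. The surroundings of the gaps, 1 to 5 kb to both sides, had 81.3 centres per kb around gaps with 2 strong flanks, 78.8 around gaps with 1 and 68.6 around gaps with none. Relative to their own surroundings the densities inside the gaps were 0.361, 0.328 and 0.247.

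The sides of a flank were not chosen alike, since a gap has no call on its inner side and no such condition was set on the outer side. At 90 to 110 bp from the flanking centre, the density was 24.4 centres per kb on the side of the gap and 60.7 per kb on the outer side. Gaps with 1 strong flank had 23.6 and 62.5 per kb, and gaps with none 16.5 and 47.4 per kb. The lower values on the inner side follow the choice of the gaps and are given as a description.

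In wider gaps the density had a maximum at the midpoint. In the 469 gaps of 250 to 300 bp, the central 40 bp had 55.6 ± 16.4 centres per kb, 2.80 times the density at 90 to 110 bp inside the flanks (19.8 ± 4.03 per kb). In the 684 gaps of 200 to below 250 bp the central 40 bp had 42.1 ± 12.1 per kb, against 18.9 ± 3.82 per kb at 90 to 110 bp. The centre was higher on 12 of 12 chromosomes in both width classes. In the 414 gaps of 150 to below 200 bp there was no such maximum. Their central 40 bp had 28.7 ± 9.50 per kb, against 38.5 ± 5.77 per kb at 90 to 110 bp, which in gaps this narrow lies close to the midpoint. Gaps with 1 strong flank had 33.9 per kb at the centre in the widest class, 1.63 times their density at 90 to 110 bp. Gaps with none had 18.5 per kb, 1.25 times. In a further comparison the 5% of gaps with most read centres in the central 40 bp were left out of the centre only. The density at 90 to 110 bp kept all gaps. This choice was made after seeing the data and lowers the centre by construction. The ratio in the widest class was then 1.95 with 2 strong flanks, 1.16 with 1 and 0.791 with none. In the class of 200 to below 250 bp it was 1.53, 1.15 and 0.824. With no strong flank, the centre of the gaps kept thus lay below the density at 90 to 110 bp of all gaps in both classes.

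**Figure D3:**
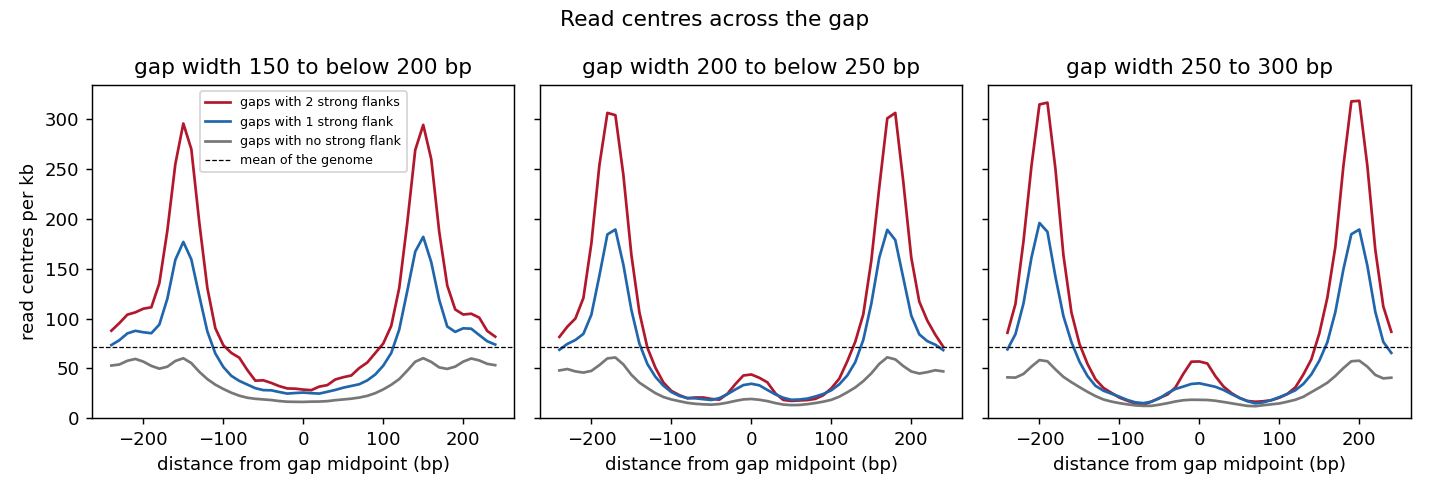
Density of single-end read centres (y axis, per kb, smoothed over 21 bp) by distance from the midpoint of the gap (x axis, bp), in 3 width classes, for gaps with 2, 1 or no strong flank; the dashed line is the genome mean of 71.3 per kb. The outer maxima are the flanking nucleosomes, which the rule selected. In gaps of 200 bp or more a small maximum stands at the midpoint and is highest with 2 strong flanks.

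Both strands contributed about equally to the reads at the midpoint, while the density of each strand elsewhere in the gap was not computed. In gaps of 250 to 300 bp, 529 forward and 514 reverse reads had their centre in the central 40 bp, and in gaps of 200 to below 250 bp 566 forward and 585 reverse reads. Pairs of a forward and a reverse 5′ end that lie about as far apart as the edges of 1 nucleosome (140 bp, or up to 16 bp more) had their midpoint inside the gap 12.1 times per kb. This was 0.270 ± 0.105 times the genome mean, against 0.186 in gaps with 1 strong flank and 0.0853 in gaps with none. The ends came from separate single-end reads, so such a pair is not a sequenced fragment. A higher read density alone can give more pairs, and the densities inside these kinds of gaps had the same order. How far density accounts for the order was not tested. At the 1567 gaps, the lowest value was 0.157 on chromosome 5 and the highest 0.544 on chromosome 8. Leaving out chromosome 8 gave 0.249. No such pair was found in 847 of the 1567 gaps (54.1%).

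The reads at the midpoint were unevenly spread over the gaps. Within 20 bp of the midpoint, 710 gaps (45.3%) had no read centre, 518 (33.1%) had 1 or 2, 263 (16.8%) had 3 to 7, and 76 (4.85%) had 8 or more, the number required of a strong flank. With 8 or more there were 334 gaps (2.30%) among those with 1 strong flank and 367 (0.718%) among those with none. For these 2 kinds together the share was 1.07%. The mean over gaps with 2 strong flanks was 1.73, below the genome mean of 2.92. The 76 gaps had a median width of 246 bp and held 34.1% of all reads at midpoints. With repeated reads counted once, 48 of them still had 8 or more. In the class of 250 to 300 bp, 34 gaps (7.25%) had 8 or more reads at the midpoint and 188 (40.1%) had none. The share with 8 or more in this class was 2.83% with 1 strong flank and 0.943% with no strong flank. When the 69 gaps of 200 bp or more with 8 or more centres in the central 40 bp were left out, a choice made after seeing the data, the centre was still 1.60 times as dense as at 90 to 110 bp inside the flanks in the other 1084 gaps, against 2.47 times with all of them. No call of the paired-end library lay in these gaps, because the gaps lie between adjacent calls.

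Outward of the gaps, the mean profile of read centres had repeated maxima that became weaker with distance. Read centres beyond the 3134 flanks had maxima at 176 ± 4.56, 358 and 551 bp. At the first maximum the density was 124 per kb, and at the minimum before it, at 94 bp, 61.0 per kb. The swing from minimum to maximum was 76.9% ± 9.50 of the mean of the profile for the first neighbour, 50.6% for the second, 24.6% for the third and 12.5% for the fourth. The swing of the first neighbour was 80.2% to the left of the gaps and 74.5% to the right, a difference smaller than the SD over chromosomes. The strong flanks of gaps with 1 strong flank had a swing of 67.4% ± 4.26 for the first neighbour and 40.4% for the second. Calls with the same minimum occupancy beside no gap of this width, taken to both sides, had 33.8% ± 0.808 and 18.4%. Their first maximum, 136 per kb, was higher than that of the 3134 flanks, and so was the minimum before it, 101 per kb. Flanks of gaps with 2 strong flanks had the higher swing on 10 of 12 chromosomes beside the strong flanks of gaps with 1. Beside the strong calls at no such gap they had it on 12 of 12. These counts set 3134 flanks beside 14505 and 1181828 profiles, and a maximum minus a minimum can grow where fewer flanks are averaged. The mean of the swings of single chromosomes was 82.5%, above the 76.9% of all 3134 flanks together. How far this raised the counts was not tested. Spacing did not separate the 3 kinds of calls, with 176, 175 and 176 bp.

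**Figure D4:**
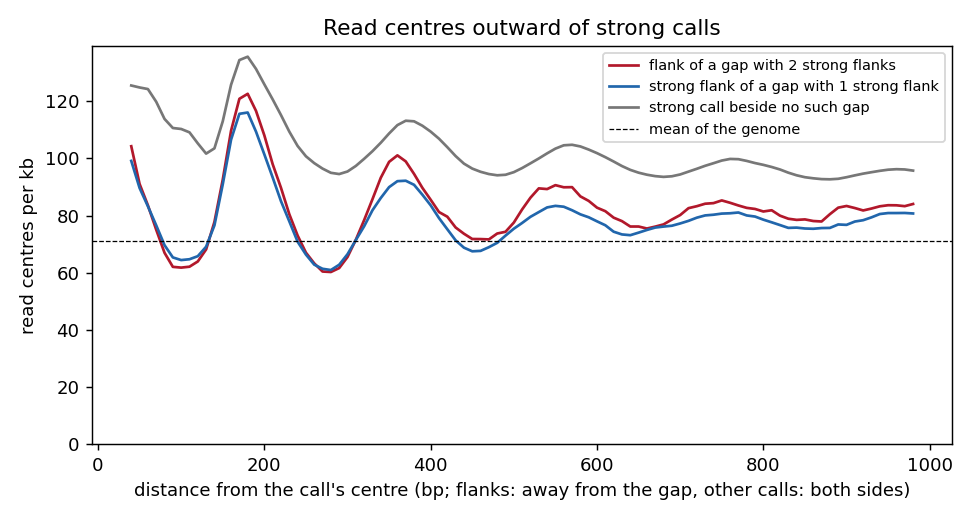
Density of single-end read centres (y axis, per kb, smoothed over 31 bp) by distance from the centre of a strong call (x axis, bp): away from the gap for the flanks of gaps with 2 strong flanks and for the strong flank of gaps with 1, and to both sides for strong calls beside no such gap; the dashed line is the genome mean. Flanks of gaps with 2 strong flanks swing most, with minima below the genome mean on both sides of the first maximum at 176 bp.

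The swing of the first neighbour differed with the width of the gap. Beside gaps of 250 to 300 bp it was 101% ± 9.68, beside gaps of 200 to below 250 bp 88.2% ± 14.8 and beside gaps of 150 to below 200 bp 37.6% ± 16.4. The strong flanks of gaps with 1 strong flank had 78.7% ± 9.12, 74.4% ± 8.98 and 57.0% ± 5.86 in the same classes. Gaps with 2 strong flanks thus had the higher value in both wider classes, on 11 and 10 of 12 chromosomes, and the lower value in the narrowest, where 6 of 12 chromosomes had the higher value at gaps with 2 strong flanks. The difference between kinds of gaps in the class of 150 to below 200 bp is larger than the SD over chromosomes but has no one direction across them. For the second neighbour the swing was 59.8% ± 16.4 beside gaps of 250 to 300 bp, 51.8% ± 16.4 beside those of 200 to below 250 bp and 43.0% ± 18.5 beside those of 150 to below 200 bp. The strong flanks of gaps with 1 strong flank had 50.8% ± 11.4, 42.8% ± 5.48 and 34.2% ± 4.10. In the narrowest class the second neighbour had the higher value with 2 strong flanks, on 10 of 12 chromosomes, opposite to the first neighbour. All 3 differences for the second neighbour were smaller than the SD over chromosomes at gaps with 2 strong flanks. The counts of chromosomes compare swings over fewer flanks at gaps with 2 strong flanks than at gaps with 1, which can raise the former.

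In the calls of the paired-end library, the next call outward could overlap the strong flank. With 2 strong flanks it did so in 46.3% of 938 flanks at gaps of 250 to 300 bp, in 45.9% of 1368 flanks at gaps of 200 to below 250 bp and in 60.1% of 828 flanks at gaps of 150 to below 200 bp. The strong flanks of gaps with 1 strong flank had 50.9%, 50.9% and 58.3%, so that the order of the kinds of gaps was turned round in the narrowest class. Over all widths the overlap was 49.8% ± 4.65 with 2 strong flanks and 53.9% for the strong flank with 1, a difference smaller than the SD over chromosomes. Overlapping calls can mark alternative positions of 1 nucleosome, and over the genome 76.8% of adjacent calls overlapped. Where the next call did not overlap, it lay 178 bp away in the median. The next call outward had a median score of 0.465 beside gaps with 2 strong flanks and 0.464 beside the strong flank of gaps with 1. It was itself strong in 781 of 3134 cases (24.9%), against 3446 of 14505 (23.8%).

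The gaps were spread over all 12 chromosomes at 4.21 per Mb. Chromosome 3 had the most per Mb (5.15) and chromosome 12 the fewest (3.45), which are also the chromosomes with the most and the fewest single-end reads per kb (77.4 and 67.6). Of 1000 gaps of any kind, 27.0 had 2 strong flanks on chromosome 3 and 19.9 on chromosome 12. Within 5 Mb of the chromosome ends there were 5.18 gaps per Mb, against 3.75 in the rest of the genome, or 27.6 against 21.2 for each 1000 gaps of any kind. The median distance from one gap to the next was 144 kb, and 26 neighbouring pairs lay within 1 kb. In 20 places 2 gaps shared a flanking nucleosome, so that 40 of the 1567 gaps have a flank in common with another. Bins of 1 Mb held a median of 4 gaps, and 15 of 366 full bins held none. The most, 14, lay on chromosome 3 from 5000000 to 5999999. Chromosome 11 from 22000000 to 22999999 and chromosome 10 from 16000000 to 16999999 held 12 each.

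**Figure D5:**
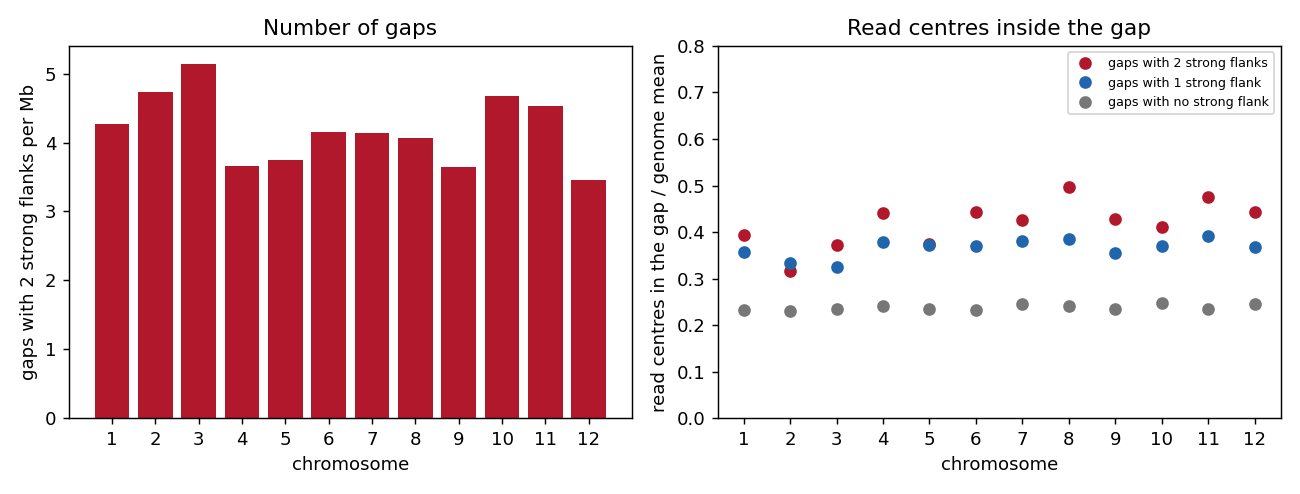
Left: gaps with 2 strong flanks per Mb (y axis) on each chromosome (x axis). Right: density of read centres inside the gap as a multiple of the genome mean (y axis) on each chromosome, for gaps with 2, 1 or no strong flank. Values with 2 strong flanks lie between 0.316 and 0.496 and above those with 1 on each chromosome but chromosome 2.

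Single gaps show the range. Positions are those of the deposited calls on TIGR release 5, and genes and sequences at the gaps were not used here. The gap with the highest occupancy at its weaker flank lay on chromosome 11 from 28412553 to 28412797, with 45 reads at the left flank and 32 at the right. Its flanks scored 0.719 and 0.673, near the median of all 1567 gaps. Its interior was not empty, with 51 read centres, of which 8 lay within 20 bp of the midpoint. By contrast, the next in order, on chromosome 10 from 19982033 to 19982281, had 25 and 32 reads at its flanks, scores of 0.801 and 0.782, and 4 read centres inside with none at the midpoint.

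A gap on chromosome 6 from 23070144 to 23070418 had 23 and 25 reads at its flanks and 15 inside, 1 of them at the midpoint. The gap on chromosome 2 from 34996725 to 34996936 had 23 reads at each flank and 2 inside, and the next calls lay 178 bp to the left and 176 bp to the right, close to the mean spacing. On chromosome 11, the gap from 5555180 to 5555450 had 57 and 22 reads at its flanks, 17 inside and 8 at the midpoint. The narrowest of the 6 with the highest occupancy, on chromosome 11 from 1332297 to 1332475, had 34 and 22 reads at its flanks and 2 inside. Thus 3 of these 6 gaps held 2 to 4 read centres and 3 held 15 or more. Counted once, repeated reads left 22 and 15 reads at the flanks of the first gap and 13 or more at each flank of the other 5.

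The highest scores at the weaker flank belonged to other gaps. On chromosome 5, the gap from 8486026 to 8486219 had scores of 0.940 and 0.938, with 15 and 22 reads at its flanks and 2 inside. The right flank kept only 3 reads when repeated reads were counted once. The gap on chromosome 8 from 19079345 to 19079538 had scores of 0.904 and 0.900 and 11 and 17 reads, of which 6 and 6 were distinct. The gap on chromosome 11 from 8183700 to 8183895 had scores of 0.916 and 0.898 and 20 and 9 reads, 6 and 5 of them distinct. On chromosome 4 the gap from 34775303 to 34775536 had scores of 0.878 and 0.913 and 8 and 22 reads, 6 and 11 of them distinct. None of these 4 gaps had 8 distinct reads at both flanks, although the paired-end library ranked their flanks highest.

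The most reads inside a gap, 59, were found on chromosome 8 from 27461461 to 27461720. Of these, 48 lay within 20 bp of the midpoint, more than at its left flank (11) or its right flank (19), and 19 of the 48 were distinct. The paired-end library had flank scores of 0.777 and 0.715 there and no call between them. The gap on chromosome 11 with the highest occupancy came next. The third, on chromosome 12 from 15161878 to 15162050, had 46 read centres inside but only 4 at its midpoint, and 9 and 31 reads at its flanks.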

How the data were processed

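MNase-seq reads from seedling leaf of rice Nipponbare were used as the authors deposited them. The authors used MAQ to place single-end reads on TIGR release 5 with up to 1 mismatch, kept unique positions and pooled both technical replicates. The 12 chromosomes held 1586786 to 3198147 reads. The authors called nucleosomes on the paired-end library with nucleR after removing long fragments and trimming the rest around the dyad. The deposited score of a call is the value nucleR gave, and its scale is not given in the sources used here. The other list of calls held the same values and was left out. The deposited positions of reads and calls were analysed with Python 3.11.15, numpy 2.4.6, pandas 2.3.3 and scipy 1.17.1. Members, comparisons and the rule for naming single gaps (the 6 of highest occupancy at the weaker flank, the 4 of highest score among the rest, the 3 with most reads inside, and the extreme chromosomes and bins of 1 Mb) were chosen with earlier results of these data known. Spacing was the maximum of the outward profile between 120 and 260 bp after smoothing over 31 bp. The calculation was checked on 3 simulated chromosomes with known gaps and spacing, where 5517 of 5517 gaps were found. The calls given there were the true positions, evenly spaced and without overlap. This check therefore cannot show how well gaps are recovered in the real calls. The number of reads limits what a single gap can show, and reads carry no molecular identifiers, so that intervals cover counting error only. Alternatives were the threshold, the window, the shift of ends, repeated reads, score, width, and single chromosomes left out, and the closing section gives their effect.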

Additional observations from a re-analysis of the deposited data

How the results depend on the processing

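The number of gaps (1567) followed the rule closely. It was 4249 with a threshold of 6 reads and 613 with 10, 203 with a window of 10 bp and 3835 with 30 bp, 695 in the narrower and 872 in the wider part of the width range, and 619 with repeated reads counted once. By construction the looser of these rules held all 1567 gaps and the stricter ones held only gaps among them. Moving ends by 70 or 76 bp gave 1553 and 1598 gaps, of which 1338 and 1377 were among the 1567.

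The median flank score was 0.635 with 6 reads, 0.751 with a window of 10 bp and 0.643 with 30 bp. The density inside the gap was 0.470 times the genome mean with repeated reads counted once, 0.361 times the surroundings, and 0.598 times the genome mean in the central 40 bp. The swing was 59.8% with 6 reads, 109% with a window of 10 bp, 58.9% with 30 bp, 54.2% in the narrower gaps and 99.2% in the wider. The share of flanks that the next call outward overlapped (49.8%) was 54.7% with 6 reads, 43.6% with 10 bp, 55.0% with 30 bp and 55.0% in the narrower gaps. The share of gaps below 200 bp (26.4%) was 30.7% with 6 reads and 30.6% with 30 bp. The density at the midpoint over that at 90 to 110 bp inside the flanks was 3.49 with 10 bp, 1.89 in those of the narrower gaps that measured 200 bp or more and 1.60 without the gaps with most reads there, against 2.47 in all gaps of 200 bp or more. In gaps of 250 to 300 bp with no strong flank, it was 0.791, against 1.25, when the gaps with most reads there were left out of the centre only. Leaving out 1 chromosome gave 1380 to 1483 gaps and, in 96 recalculations of the other values, moved none by more than its spread. That spread is the SD of values of single chromosomes, and each recalculation kept all chromosomes but 1. A move larger than the spread was therefore hardly possible, and this count is no test of stability. The causes were not tested.

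Widths and the midpoint ratio were put through the alternatives after the data had been seen. No paired analysis was possible because no replicate number is common to the single-end and the paired-end library (each form has 1 replicate, so none was left out). Spacing stayed at 172 to 180 bp under all settings run, smoothing over 11 and 51 bp included.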

Other observations

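The scores of the left and right flanks were weakly related. Spearman's rho was 0.170 over the 1567 gaps with 2 strong flanks and 0.0666 over all 67175 gaps of 150 to 300 bp. These values are descriptions across gaps of 1 library, which share the scale of the score on each chromosome.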
